A study of Mus musculus with 24 samples.

Results

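Osteocytes are the cells that osteoblasts become once they are buried in the bone matrix they have made. Of a list of 5 osteocyte genes (Dmp1, Phex, Mepe, Pdpn and Sost), 4 had a row among the 15055 genes measured, and these 4 are described here over the 6 groups of the study. Mepe was not analysed here. The members were listed by symbol and not by a cut on their values, but earlier results of these data were known when the list was made.

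The samples were hind limb digit tips of C57BL/6 mice aged 10 to 12 weeks, an inbred strain with no engineered allele given in the labels. Each was taken 12, 14 or 21 days after amputation of the digit at a distal or at a proximal level, with 4 libraries in each of the 6 groups and no unamputated group among the samples used here. In mice, a digit tip cut through the distal part of the last bone grows back, whereas a more proximal cut heals without regrowth, and the comparison of levels sets the first case beside the second. A sample held bone, cartilage, marrow, dermis and epidermis together, so a lower value can reflect fewer cells of a type or less RNA per cell, and these cannot be told apart. The labels name no animal for any library, so the p-values measure the spread between libraries and part of that spread may be technical.

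Markers of the labelled tissues other than marrow were found in the 24 libraries, though 1 cartilage marker reached 0 in the proximal 21-day group. Of 5 listed marrow and blood markers 3 were measured, for haemoglobin and leukocytes. Circulating blood holds these too, so marrow was not told apart from blood. The summed value of 11 osteoblast markers lay between 104982 and 928250, that of 5 basal keratinocyte markers between 141907 and 272868, that of 6 fibroblast markers between 53137 and 253514, that of 5 cartilage markers between 1621 and 9978, and that of 3 marrow and blood markers between 272 and 12290. The 4 osteocyte genes summed to between 219 and 2099. These sums add unscaled values, so the most abundant markers decide them. In the proximal 12-day group Col1a1 and Col1a2 averaged 226534 and 195905 among the osteoblast markers. Col3a1 averaged 216901 among the fibroblast markers and Krt14 100906 among the keratinocyte markers. A sum therefore need not move as most markers of its list do. Upper quartiles of the libraries lay between 902.5 and 930.5, since the deposited values look normalised, and the read depth behind them is unknown.

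The 4 genes serve different steps in the life of an osteocyte. Dmp1, dentin matrix protein, is an acidic phosphoprotein that osteocytes secrete into the matrix around them, where it binds calcium and guides mineral deposition. Phex is a membrane endopeptidase of osteoblasts and osteocytes whose loss causes phosphate wasting and poorly mineralised bone, and loss of Dmp1 has a similar outcome, both through raised Fgf23. Sost encodes sclerostin, which osteocytes release to block the Wnt co-receptors Lrp5 and Lrp6 on osteoblasts and so restrain bone formation; it marks mature osteocytes. Pdpn encodes podoplanin, also called E11, a membrane glycoprotein that appears early, as the embedding cell puts out its dendrites, and it is also made by lymphatic endothelium, basal keratinocytes and some fibroblasts.

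In the mouse genome (GRCm38, GENCODE vM21) Dmp1 lies on chr5:104202613-104214102 on the plus strand, beside Dspp, Ibsp, Mepe and Spp1, which encode acidic matrix proteins of the same family within a stretch of 270.3 kb. Phex lies on chrX:157162075-157415312, Sost on chr11:101962458-101967015 and Pdpn on chr4:143267431-143299564, all 3 on the minus strand. Phex overlaps a miRNA gene, a snoRNA gene and a processed pseudogene, none of which is in the table, and the other 3 members overlap no annotated gene. The 250 bases before each start site (RefSeq, GRCm38.p6) are printed because Dmp1, Phex and Sost rose together in one of the comparisons below while Pdpn did not. Each is read 5′ to 3′ on the strand of its gene, and capitals mark the motifs found.

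Dmp1 promoter, chr5:104202367-104202616, plus strand: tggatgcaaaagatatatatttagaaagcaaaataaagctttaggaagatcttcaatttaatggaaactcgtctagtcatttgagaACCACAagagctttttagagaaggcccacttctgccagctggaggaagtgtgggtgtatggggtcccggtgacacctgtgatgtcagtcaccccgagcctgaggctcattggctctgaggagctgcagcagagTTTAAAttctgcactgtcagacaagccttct
Phex promoter, chrX:157415287-157415536, minus strand: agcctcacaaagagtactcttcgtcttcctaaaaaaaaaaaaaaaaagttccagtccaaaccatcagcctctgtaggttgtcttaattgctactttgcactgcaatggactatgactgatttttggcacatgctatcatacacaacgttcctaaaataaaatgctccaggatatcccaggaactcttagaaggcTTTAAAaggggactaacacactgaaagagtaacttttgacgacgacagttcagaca
Sost promoter, chr11:101967016-101967265, minus strand: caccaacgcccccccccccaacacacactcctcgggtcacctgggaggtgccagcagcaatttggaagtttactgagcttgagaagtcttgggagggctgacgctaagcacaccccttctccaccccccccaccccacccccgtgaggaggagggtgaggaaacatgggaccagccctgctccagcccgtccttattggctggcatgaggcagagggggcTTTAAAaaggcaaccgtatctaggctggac
Pdpn promoter, chr4:143299565-143299814, minus strand: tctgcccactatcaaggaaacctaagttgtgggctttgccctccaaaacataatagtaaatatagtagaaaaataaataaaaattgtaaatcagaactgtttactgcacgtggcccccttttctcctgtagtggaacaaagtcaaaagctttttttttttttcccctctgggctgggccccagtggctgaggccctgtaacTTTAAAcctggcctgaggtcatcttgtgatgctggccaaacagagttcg

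Dmp1 has more than 1 start in RefSeq, and the window before the start nearest to the GENCODE one is shown. The capitals TTTAAA, an A/T-rich core close to a TATA box, occur in all 4 windows, 31 bases before the start in Dmp1, 56 in Phex, 30 in Sost and 49 in Pdpn. This motif was added to the search after the sequences had been read, and 12.1% of 32851 mouse promoter windows of the same length hold it. The capitals ACCACA in Dmp1 are the reverse complement of TGTGGT, the core bound by RUNX factors, 164 bases before the start, and 14.0% of windows hold that core on either strand. TATAAA (12.4% of windows), TGANTCA of AP-1 (6.75%), CTTTGA of TCF/LEF factors (13.8%) and TAATTA of homeodomain proteins (4.84%), searched on both strands, matched none of the 4 windows. Any part of these motifs in the course of the 4 genes was not tested.

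Dmp1 and Phex, the matrix protein and the endopeptidase, were high at 14 days and low at 21 days after either amputation. They differed most between levels at 12 days, when distal libraries held more of both on average. Sost was far lower than the others and had its highest group means at 14 days too. Pdpn followed another course, with group means of 310 to 380 at 12 and 14 days, and fell by 21 days at both levels.

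**Figure D1:**
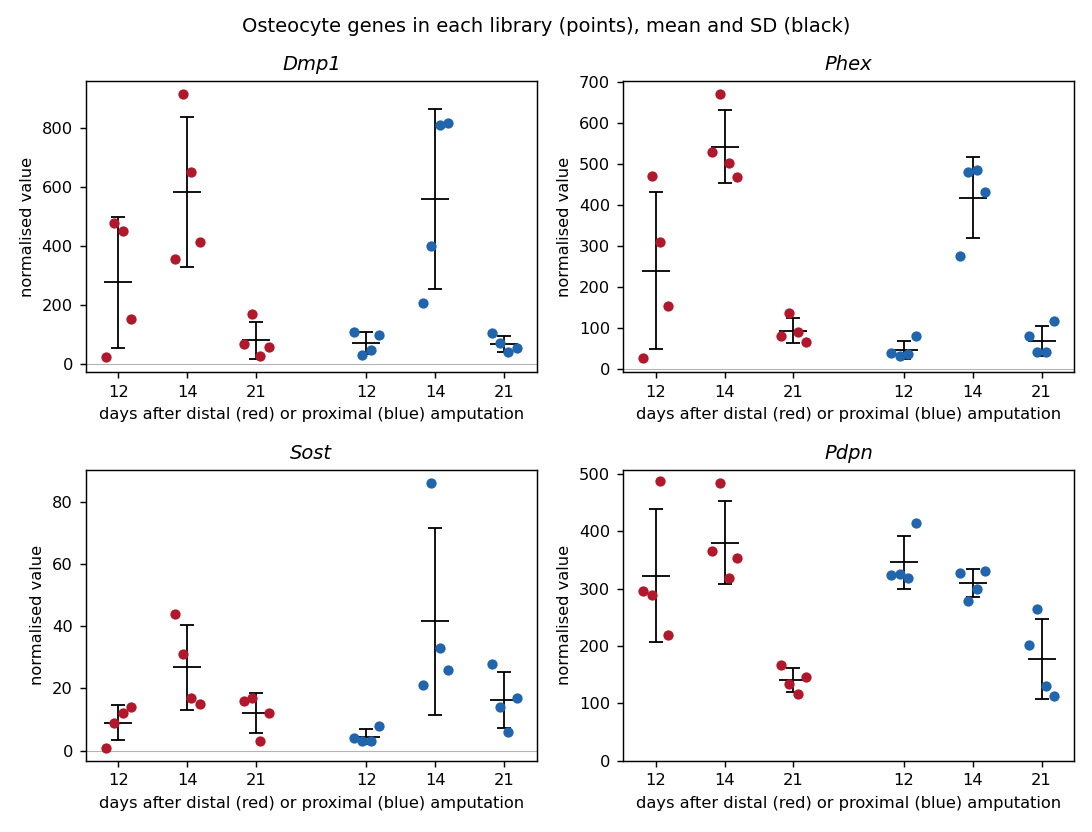
Normalised value (linear axis) of each gene in each of the 24 libraries, by day after distal (red) or proximal (blue) amputation; points are libraries, black bars the mean and SD of 4. Dmp1, Phex and Sost have their highest group means at 14 days, with Dmp1 at 583 and 558, and Pdpn has its lowest at 21 days, at 140.2 and 177.5.

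After distal amputation, Dmp1 was at 26, 478, 450 and 153 in replicates 1 to 4 at 12 days, at 356, 913, 650 and 414 at 14 days, and at 67, 171, 27 and 58 at 21 days. The 12-day libraries spanned almost the whole range, with replicate 1 as low as any 21-day library and replicates 2 and 3 among the 14-day values. After proximal amputation Dmp1 was at 108, 31, 48 and 100 at 12 days, at 207, 399, 810 and 815 at 14 days, and at 106, 71, 41 and 55 at 21 days. Here the 14-day libraries all stood above those of both other days, which overlapped each other.

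Phex was at 28, 471, 311 and 154 at 12 days after distal amputation, at 530, 671, 504 and 468 at 14 days, and at 82, 137, 91 and 67 at 21 days. After proximal amputation it was at 39, 33, 38 and 81 at 12 days, at 276, 482, 485 and 432 at 14 days, and at 81, 41, 41 and 117 at 21 days. The distal 12-day library with the least Dmp1 was also the one with the least Phex, and the one with the most Dmp1 had the most Phex. In the proximal groups the 14-day values were again clear of both other days.

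Sost was at 1, 9, 12 and 14 at 12 days after distal amputation, at 44, 31, 17 and 15 at 14 days, and at 16, 17, 3 and 12 at 21 days. After proximal amputation it was at 4, 3, 3 and 8 at 12 days, at 21, 86, 33 and 26 at 14 days, and at 28, 14, 6 and 17 at 21 days. At such low values counting error is large and, without the depth, cannot be given. The 14-day values stood above those of 12 days at both levels, and overlapped those of 21 days at both.

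Pdpn was at 296, 288, 488 and 219 at 12 days after distal amputation, at 365, 484, 318 and 353 at 14 days, and at 166, 133, 116 and 146 at 21 days. After proximal amputation it was at 324, 326, 318 and 414 at 12 days, at 328, 279, 300 and 331 at 14 days, and at 202, 265, 131 and 112 at 21 days. At either level the 21-day libraries lay below all libraries of both earlier days.

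Per kilobase of transcript, Pdpn had the highest mean over the 24 libraries, at 154, above 67.5% of all genes. Dmp1 followed at 98.8 (above 55.7% of genes), Phex at 37.5 (above 32.4%) and Sost at 8.87 (above 7.96%). In order of mean value, Dmp1 ran from distal 14 days (583 ± 254, SD, n = 4, as for all group means here) through proximal 14 days (558 ± 304), distal 12 days (277 ± 223), distal 21 days (80.8 ± 62.6) and proximal 12 days (71.8 ± 38.0) to proximal 21 days (68.2 ± 28.0). Phex ran from distal 14 days (543 ± 88.9) through proximal 14 days (419 ± 98.2), distal 12 days (241 ± 192), distal 21 days (94.2 ± 30.2) and proximal 21 days (70.0 ± 36.6) to proximal 12 days (47.8 ± 22.3). In both orders each group overlapped the next, so no single step down the order exceeded the spread between libraries.

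For Sost the order was proximal 14 days (41.5 ± 30.1), distal 14 days (26.8 ± 13.5), proximal 21 days (16.2 ± 9.11), distal 21 days (12.0 ± 6.38), distal 12 days (9 ± 5.72) and proximal 12 days (4.50 ± 2.38), again with every neighbour overlapping. For Pdpn it was distal 14 days (380 ± 72.1), proximal 12 days (346 ± 45.8), distal 12 days (323 ± 115), proximal 14 days (310 ± 24.7), proximal 21 days (178 ± 70.0) and distal 21 days (140.2 ± 21.1). The step from proximal 14 to proximal 21 days was the one place in these orders where neighbouring groups did not overlap.

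Distal was then compared with proximal amputation at each day, with limma on log2(value + 1) and Benjamini-Hochberg adjustment over all 15055 genes. Differences are given on that scale with their standard error, and a gene was called at an adjusted p under 0.05. At 12 days, 1 of the 4 genes was called, Phex, and it was higher after distal amputation. Over all genes, 20.3% were called at 12 days, 9.25% as higher distally. Phex was higher by 1.81 ± 0.55, a 3.51-fold difference (adjusted p = 0.0231), although the groups overlapped because distal replicate 1, at 28, was below every proximal library. Dmp1 differed by 1.43 ± 0.71 (adjusted p = 0.162), with a 95% interval of -0.04 to 2.89. Sost differed by 0.61 ± 0.61 (adjusted p = 0.514) and Pdpn by -0.15 ± 0.23 (adjusted p = 0.676), with an interval for Pdpn of -0.62 to 0.32.

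Markers of other cell types differed between the same groups. Fibroblast marker sums were 85292 to 124370 distally and 210091 to 253514 proximally, and cartilage marker sums 2175 to 3399 and 3587 to 9185, both without overlap. As lower distally, 3 of 6 fibroblast, 2 of 5 cartilage, 2 of 5 lymphatic endothelium and 1 of 4 macrophage markers were called, and 1 cartilage marker was called as higher. Among all genes 11% were called as lower and 9.25% as higher. No osteoblast, osteoclast, basal keratinocyte or marrow and blood marker was called. The median differences of these 4 lists were 0.58, 1.13, 0.11 and 0.76, against -0.03 over all genes. Higher distally, called or not, were 9 of 11, 7 of 7, 4 of 5 and 2 of 3 of their markers. The part of these differences in the Phex result was not tested.

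The 12-day result turned on single libraries. Without distal replicate 1, Phex differed by 2.63 (adjusted p = 8.34e-05) and Dmp1 was called as well, at 2.32 (adjusted p = 0.00996). Phex lost its call without distal replicate 2 (1.29, adjusted p = 0.0996), distal replicate 3 (1.49, 0.0838), proximal replicate 2 (1.67, 0.0619) or proximal replicate 3 (1.74, 0.0569), and also when the 2 groups were fitted on their own (1.81, 0.118). Distal replicate 1 had the lowest osteoblast marker sum of its group, 191753 against 222011 to 435059 in the others. It had the highest osteoclast, basal keratinocyte and fibroblast sums of the group, 52923, 255716 and 124370. What part this mixture had in its low Dmp1 and Phex was not tested.

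At 14 and at 21 days none of the 4 genes was called between levels, where 5.39% and 17.6% of all genes were. Without adjustment none of these 8 differences had a p under 0.05 either. At 14 days the differences were 0.17 ± 0.71 for Dmp1 (95% interval -1.30 to 1.64), 0.40 ± 0.55 for Phex (-0.75 to 1.54), -0.52 ± 0.61 for Sost (-1.78 to 0.74) and 0.28 ± 0.23 for Pdpn (-0.19 to 0.75). At 21 days they were 0.02 ± 0.71 for Dmp1 (-1.44 to 1.49), 0.52 ± 0.55 for Phex (-0.63 to 1.66), -0.45 ± 0.61 for Sost (-1.70 to 0.81) and -0.27 ± 0.23 for Pdpn (-0.74 to 0.20). The intervals were narrow for Pdpn and, for the other 3 genes, wide enough to hold differences of more than 1 log2 unit.

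**Figure D2:**
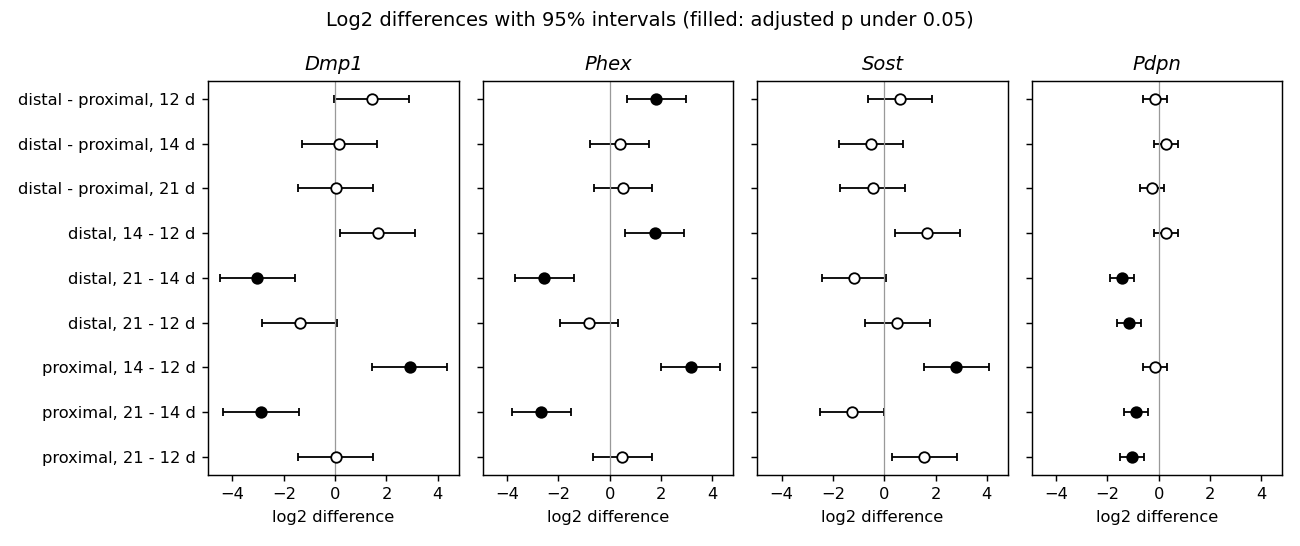
Log2 difference (x axis) of each gene in 9 comparisons, with 95% intervals; filled points had an adjusted p under 0.05. For Dmp1 and Phex the filled points to the left are the falls from 14 to 21 days, -3.04 and -2.55 after distal and -2.89 and -2.67 after proximal amputation.

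From 12 to 14 days after proximal amputation, Dmp1, Phex and Sost rose, 3 of the 4 genes, where 15.2% of all genes were called and 7.35% as higher. Dmp1 rose 7.52-fold (2.91 ± 0.71, adjusted p = 0.00748), Phex 8.97-fold (3.17 ± 0.55, adjusted p = 0.000578) and Sost 7.03-fold (2.81 ± 0.61, adjusted p = 0.00312). None of the 3 had overlapping groups, and 8.4% of all genes were higher without overlap. All 3 were called under every setting that gave a value (Sost drops out with a filter on a mean of at least 50) and without any one library. Pdpn differed by -0.15 ± 0.23 (adjusted p = 0.700). No fibroblast marker was called there, and their sum was lower at 14 days, at 133352 to 202416, than at 12 days, at 210091 to 253514.

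Over the same days after distal amputation, Phex alone of the 4 was called, rising 3.36-fold (1.75 ± 0.55, adjusted p = 0.0289), where 19.4% of all genes were called and 11.2% as higher. Dmp1 differed by 1.65 ± 0.71 (adjusted p = 0.106), Sost by 1.68 ± 0.61 (adjusted p = 0.0548) and Pdpn by 0.28 ± 0.23 (adjusted p = 0.422). The Sost groups did not overlap, which held for 11.9% of all genes in this direction. Of the 6 fibroblast markers 4 rose over the same days and none fell, with a median of 0.67, and their sum went from 85292 to 124370 up to 153446 to 221419 without overlap. Their part in the Phex rise was not tested. These calls also moved with single libraries. Phex was not called without distal 12-day replicate 1 (0.93, adjusted p = 0.109) or 4 (1.73, 0.0594), nor without distal 14-day replicate 1 (1.76, 0.0525), 2 (1.64, 0.0731) or 3 (1.78, 0.0521), nor with the 2 groups fitted on their own (1.75, 0.119). Dmp1 was called without 12-day replicate 2 (2.14, 0.0496), and Sost without 12-day replicate 3 (1.92, 0.0461) or 4 (1.99, 0.0410).

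Whether the 12-to-14-day change differed between levels was tested as an interaction. The distal change minus the proximal change was -1.26 ± 1.00 for Dmp1 (adjusted p = 0.467), -1.42 ± 0.78 for Phex (0.265), -1.13 ± 0.86 for Sost (0.442) and 0.43 ± 0.32 for Pdpn (0.429). None was called, where 11.7% of all genes were, and none of the unadjusted p values of the 12 interactions was under 0.05. Without distal 12-day replicate 1 the Phex interaction was called, at -2.24 (adjusted p = 0.00977). The rise in 3 genes after proximal amputation is therefore not shown to differ from that after distal amputation over the full set of libraries.

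From 14 to 21 days Dmp1, Phex and Pdpn fell at both levels. After distal amputation 34.8% of all genes were called and 21.5% as lower, and 19.5% were lower without overlap. Dmp1 fell 8.22-fold (-3.04 ± 0.71, adjusted p = 0.00193), Phex 5.86-fold (-2.55 ± 0.55, adjusted p = 0.00106) and Pdpn 2.69-fold (-1.43 ± 0.23, adjusted p = 5.10e-05). Sost differed by -1.18 ± 0.61 (adjusted p = 0.140), and its groups overlapped while those of the other 3 did not.

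After proximal amputation 28.7% of all genes were called from 14 to 21 days, 16.3% as lower, and 14.9% were lower without overlap. Dmp1 fell 7.42-fold (-2.89 ± 0.71, adjusted p = 0.00402), Phex 6.37-fold (-2.67 ± 0.55, adjusted p = 0.00106) and Pdpn 1.84-fold (-0.88 ± 0.23, adjusted p = 0.00576), again without overlap. Sost differed by -1.25 ± 0.61 (adjusted p = 0.127). The 6 falls were called under every setting tried and without any one library. The distal minus proximal change over these days was -0.15 ± 1.00 for Dmp1, 0.12 ± 0.78 for Phex, 0.07 ± 0.86 for Sost and -0.55 ± 0.32 for Pdpn, with adjusted p values of 0.954, 0.952, 0.975 and 0.361 (1.9% of all genes called).

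Between 12 and 21 days, Pdpn was the member called at both levels. It was lower by 21 days after distal amputation, 2.21-fold (-1.15 ± 0.23, adjusted p = 0.000855; 23.8% of all genes called and 15% as lower), and after proximal amputation, 2.04-fold (-1.03 ± 0.23, adjusted p = 0.00161; 29% called and 17% as lower). Its groups did not overlap in either comparison, which held for 14.9% of all genes distally and 16.2% proximally in this direction. Dmp1 differed by -1.38 ± 0.71 distally (adjusted p = 0.161) and by 0.02 ± 0.71 proximally (0.989), and Phex by -0.80 ± 0.55 (0.307) and 0.49 ± 0.55 (0.534). Without distal 12-day replicate 1 both were called as lower distally, Dmp1 at -2.28 (adjusted p = 0.00897) and Phex at -1.62 (0.00493). Sost differed by 0.51 ± 0.61 distally (0.579) and by 1.56 ± 0.61 proximally (0.0566).

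The proximal Sost difference between 12 and 21 days was called without proximal 12-day replicate 4 (1.83, adjusted p = 0.0428), without proximal 21-day replicate 3 (1.94, 0.0300) and with the 2 groups fitted on their own (1.56, 0.0310). The distal minus proximal change from 12 to 21 days was -1.40 ± 1.00 for Dmp1 (adjusted p = 0.380), -1.30 ± 0.78 for Phex (0.288), -1.06 ± 0.86 for Sost (0.450) and -0.11 ± 0.32 for Pdpn (0.856), where 14.8% of all genes were called. Without distal 12-day replicate 1 that of Phex was called, at -2.12 (adjusted p = 0.0103).

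**Figure D3:**
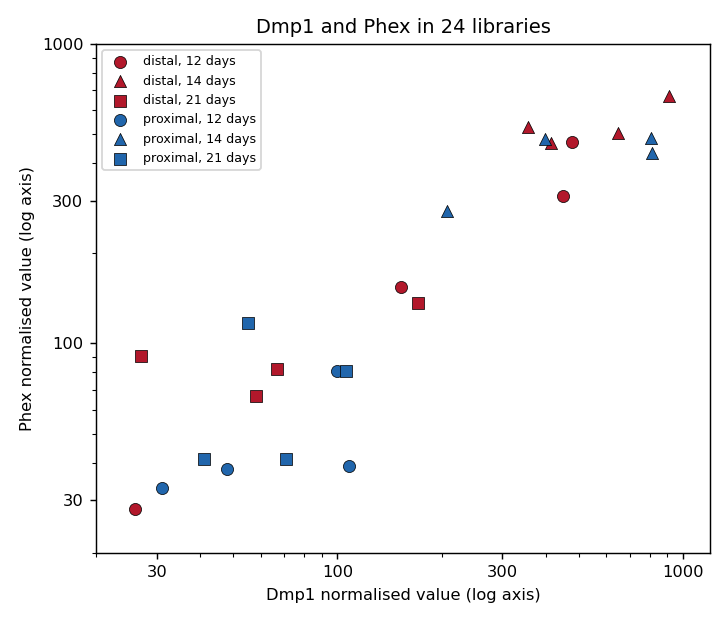
Dmp1 (x) against Phex (y) normalised values in the 24 libraries, both axes logarithmic; colour gives the amputation level and shape the day. Libraries of 14 days lie at the upper right, where 2 distal 12-day libraries join them, and distal 12-day replicate 1 (26 and 28) lies at the lower left.

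Dmp1 and Phex rose and fell together over the libraries. Over the 24 libraries Pearson's r of their log2 values was 0.92, and it was 0.80 for the deviations from the group means. The distal 12-day libraries, with Dmp1 from 26 to 478 and Phex from 28 to 471, weigh most in that within-group value. It was not computed without them. In single libraries the log2 ratio of Dmp1 to Phex lay between -1.72 (distal 21 days) and 1.45 (proximal 12 days). Sost followed both less closely (0.71 with Dmp1 and 0.74 with Phex; 0.64 and 0.66 within groups). Pdpn stood apart, with 0.55 with Dmp1, 0.38 with Phex and 0.12 with Sost, and 0.35, 0.06 and 0.24 within groups. These values describe libraries that share their day, level and tissue mixture, and carry no test.

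The genes most like each member over the 24 libraries were ranked among 12485 genes with a mean value of at least 50 (12486 for Sost). For Dmp1 they were Col11a2 (r = 0.94), Insc (0.92), Phex (0.92), Ptgis (0.91) and Ramp1 (0.90), and for Phex they were Col11a2 (0.93), Dmp1 (0.92), Car3 (0.91), Col22a1 (0.91) and Ramp1 (0.88). Col11a2 and Ramp1, a chain of a fibrillar collagen and a partner of the calcitonin-receptor-like receptor, were on both lists. For Sost they were Bglap (0.88), which encodes osteocalcin of mature osteoblasts, Enpp6 (0.76), Apold1 (0.75), 8430408G22Rik (0.75) and Car3 (0.75). For Pdpn they were Tmem173 (0.93), Clmp (0.92), P4ha3 (0.92), Ccdc127 (0.92) and Arhgef2 (0.91), none shared with the other 3 members.

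Dmp1 belongs to a family of acidic matrix proteins with Ibsp, bone sialoprotein, and Spp1, osteopontin, both made by osteoblasts at earlier steps. Ibsp was at 6607 ± 4160 at 12, 14743 ± 5956 at 14 and 922 ± 338 at 21 days after distal amputation, and at 5486 ± 3781, 7180 ± 4830 and 828 ± 449 after proximal amputation. Spp1 was at 3344 ± 792, 5451 ± 2695 and 953 ± 176 distally and at 2278 ± 1327, 3371 ± 1795 and 1338 ± 78.5 proximally. Neither was called between levels at any day. Both fell with Dmp1 from 14 to 21 days, Ibsp at -3.98 ± 0.55 distally (adjusted p = 1.22e-05) and -2.96 ± 0.55 proximally (0.000429), and Spp1 at -2.40 ± 0.37 and -1.20 ± 0.37.

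From 12 to 14 days after proximal amputation, when Dmp1, Phex and Sost rose, Ibsp differed by 0.40 ± 0.55 (adjusted p = 0.677) and Spp1 by 0.63 ± 0.37. Of the 11 osteoblast markers, a list that includes Ibsp and Spp1, 2 were called as higher in that comparison, the osteocalcin genes Bglap (4.10 ± 0.85, adjusted p = 0.00232) and Bglap2 (3.42 ± 0.66, 0.00143), and the list's median was 0.55 against -0.01 over all genes. The median of the 4 osteocyte genes was 2.86. From 12 to 14 days distally, 6 of the 11 markers were higher and none lower, with a median of 1.17, against 1.67 for the osteocyte genes and 0.01 over all genes. By 21 days, against 14, 10 of 11 distally and 9 of 11 proximally were lower, with medians of -2.28 and -1.91, beside -1.99 and -1.96 for the osteocyte genes. Of all genes 7.35% rose from 12 to 14 days proximally and 11.2% distally, and 21.5% distally and 16.3% proximally fell by 21 days. The osteoblast marker sum was 344814 to 590034 in the proximal 12-day libraries and 488510 to 857901 in those of 14 days, so those ranges overlapped where the Dmp1, Phex and Sost ranges did not. Col1a1 and Col1a2 made up most of that sum. The part of osteoblast number in the rise was not tested.

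**Figure D4:**
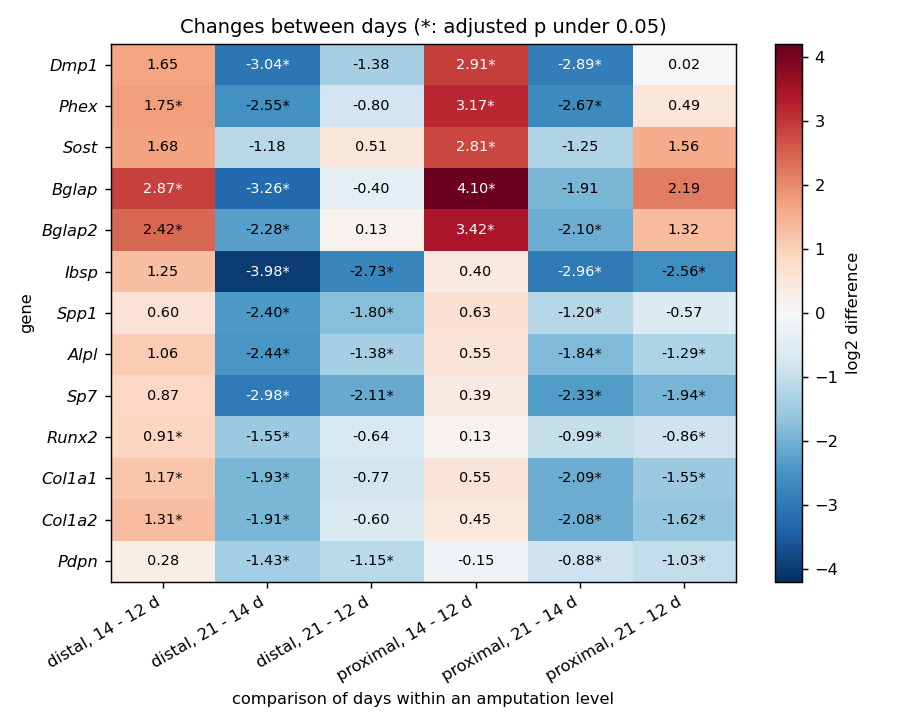
Log2 difference (colour and number) of the osteocyte genes, 2 further matrix genes of the Dmp1 family and 7 osteoblast markers in the 6 comparisons of days; an asterisk marks an adjusted p under 0.05. In the proximal comparison of 14 with 12 days, Dmp1, Phex, Sost, Bglap and Bglap2 carry an asterisk at 2.81 to 4.10, while the other 8 genes lie between -0.15 and 0.63.

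Ratios within a library, formed here from value + 1, depend little on its scaling unless values are low. They were formed after the values had been seen, so they carry no test. The log2 ratio of Dmp1 to Ibsp was -6.11 ± 0.44 (-6.60 to -5.68) at 12 days after proximal amputation and -3.61 ± 0.55 (-4.05 to -2.85) at 14 days, with no overlap. That of Phex to Ibsp was -6.61 ± 1.06 (-8.05 to -5.59) and -3.85 ± 0.99 (-4.89 to -2.57), again with no overlap. After distal amputation the 12-day and 14-day ratios were -5.05 ± 1.28 and -4.65 ± 0.40 for Dmp1 and -5.16 ± 1.22 and -4.66 ± 0.64 for Phex, with overlap. At 21 days the Dmp1 ratio was -3.71 ± 0.93 distally and -3.54 ± 0.92 proximally. The ratio of Dmp1 to Phex had group means between -0.47 and 0.50 in all 6 groups, with SDs of 0.29 to 0.87. Its single libraries ran from -1.72 to 1.45.

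**Figure D5:**
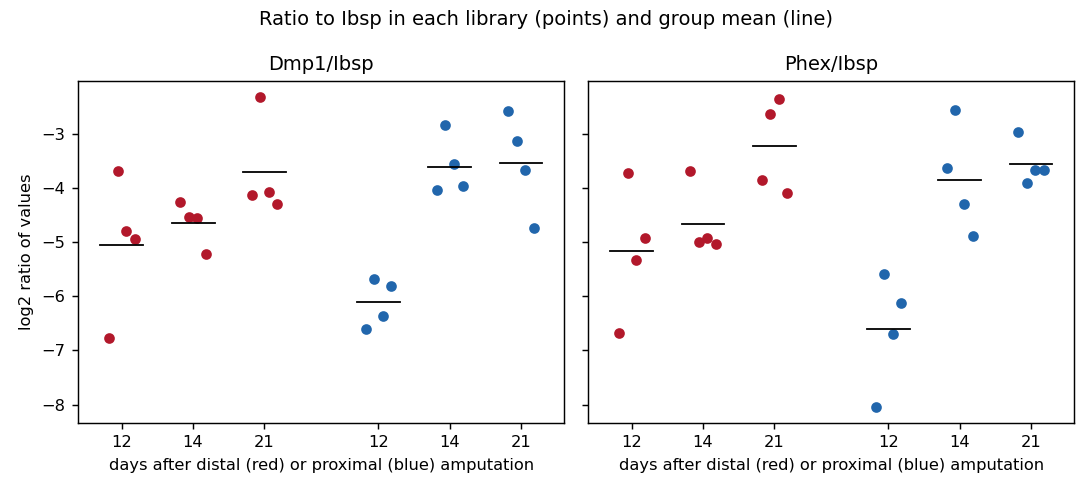
Log2 ratio (y axis) of Dmp1 and of Phex to Ibsp in each library, by day after distal (red) or proximal (blue) amputation, with the group mean as a line. The 4 proximal 12-day libraries lie below all proximal libraries of 14 and 21 days, between -6.60 and -5.68 for Dmp1.

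Phosphate and mineral handling, the process in which Phex and Dmp1 act, was covered by a list of 12 genes, of which 11 were measured, Phex among them. At 12 days 2 were higher distally and 2 lower, at 14 days none was called, and at 21 days 2 were higher, with medians of -0.03, 0.23 and -0.08. Of all genes, 9.25% were higher distally and 11% lower at 12 days. At 14 days 5.39% were called, and at 21 days 8.22% were higher and 9.43% lower. The genes of the list lower at 12 days were Enpp1, which makes the mineralisation inhibitor pyrophosphate (-1.15 ± 0.15, adjusted p = 1.17e-05), and Mgp, a matrix protein that inhibits calcification (-0.98 ± 0.25, 0.00714). Beside them Phex was higher. At 21 days Ank, which exports pyrophosphate and ATP (0.27 ± 0.08, 0.0179), and Slc20a2, a phosphate transporter (0.40 ± 0.09, 0.00385), were higher distally.

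Between 14 and 21 days 6 of these 11 genes fell and 1 rose distally, and 4 fell and 1 rose proximally. Over those days 21.5% of all genes fell and 13.3% rose distally, and 16.3% fell and 12.5% rose proximally. From 12 to 14 days 11.2% of all genes rose and 8.12% fell distally, and 7.35% rose and 7.84% fell proximally. Of the 11 genes, 2 rose and none fell distally from 12 to 14 days, and 1 rose and 1 fell proximally. The one that rose proximally was Phex itself and the one that fell was Enpp1 (-0.84 ± 0.15, adjusted p = 0.000635). Phex and Enpp1 thus changed in opposite directions there, whereas both fell from 14 to 21 days (Enpp1 at -1.03 ± 0.15 distally and -0.72 ± 0.15 proximally).

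A second list held 12 other genes used for osteocytes, 10 of them measured. Between levels, 3 were higher and 2 lower distally at 12 days, 1 higher at 14 days, and 2 higher and 1 lower at 21 days. Of all genes, 9.25% were higher and 11% lower distally at 12 days, 3.06% higher at 14 days, and 8.22% higher and 9.43% lower at 21 days. At 12 days Tnfsf11, the osteoclast-forming cytokine RANKL that osteocytes and other cells make, was higher distally (mean 400 against 121.5; 1.76 ± 0.42, adjusted p = 0.00506), as was the gap junction gene Gja1, through which osteocytes couple (0.76 ± 0.15, 0.0015), while Mmp14, a collagenase needed for osteocyte processes, was lower (-0.94 ± 0.12, 1.24e-05). At 12 days Gja1 averaged 22393 distally and 13151 proximally and Mmp14 5102 and 9802, beside 277 and 71.8 for Dmp1. Which cells of the mixed tissue made these transcripts was not tested. At 14 days Mef2c, a transcription factor that drives the Sost enhancer, was higher distally (0.87 ± 0.26, 0.0492). At 21 days Hpse (0.88 ± 0.23, 0.0117) and Mmp14 (0.38 ± 0.12, 0.0356) were higher and the transcription factor gene Irx5 lower (-1.49 ± 0.26, 0.0005).

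From 12 to 14 days after distal amputation 2 of these 10 genes rose, Mef2c (1.21 ± 0.26, adjusted p = 0.00214) and Mmp14 (0.79 ± 0.12, 0.000136), both without overlap, and Tnfsf11 fell (-1.35 ± 0.42, 0.0265), with a median of 0.14 over the list. In that comparison 11.2% of all genes were called as higher and 8.12% as lower, and 11.9% were higher without overlap. After proximal amputation 2 of 10 rose over these days and none fell, Gja1 (0.82 ± 0.15, adjusted p = 0.00112) and Hpse (0.76 ± 0.23, 0.0292), with a median of 0.20. Mef2c differed by 0.20 ± 0.26 there, where 7.35% of all genes rose and 7.84% fell. Between 14 and 21 days 6 of 10 fell and 1 rose distally, and 4 fell and none rose proximally. Over those days 21.5% of all genes fell and 13.3% rose distally, and 16.3% fell and 12.5% rose proximally. Mef2c and Mmp14 fell at both levels, Mef2c at -1.84 ± 0.26 and -1.17 ± 0.26 and Mmp14 at -1.10 ± 0.12 and -1.32 ± 0.12.

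Sclerostin acts on Wnt signalling, and a list of 10 genes for its receptors and for Wnt readouts had 9 measured. Between levels, 2 were higher distally and none lower at 12 and again at 14 days, and 3 were higher and 1 lower at 21 days. Of all genes, 9.25%, 3.06% and 8.22% were higher distally at 12, 14 and 21 days, and 11%, 2.32% and 9.43% lower. The receptor genes Lrp4, Lrp5 and Lrp6 were not called between levels at any day. Tcf7, a Wnt-responsive transcription factor gene, was higher distally at all 3 days (1.72 ± 0.16, 0.64 ± 0.16 and 1.32 ± 0.16), and the related Lef1 at 12 and 21 days (2.24 ± 0.44 and 2.13 ± 0.44). Nkd1, a Wnt feedback inhibitor, was higher distally at 14 and 21 days (0.61 ± 0.17 and 1.34 ± 0.17). The one lower distally at 21 days was Sostdc1, a secreted relative of sclerostin that also blocks Wnt co-receptors (mean 190.8 against 444; -1.16 ± 0.28, adjusted p = 0.00749). At the same days Sost itself was not called between levels. From 12 to 14 days after proximal amputation, when Sost rose, Tcf7 (1.13 ± 0.16, adjusted p = 0.0001) and Lef1 (1.79 ± 0.44, 0.00757) rose too and none of the 9 fell. In that comparison 7.35% of all genes rose and 7.84% fell. From 14 to 21 days 5 of 9 fell proximally and 2 of 9 distally, with none higher. The shares of all genes that fell were 16.3% proximally and 21.5% distally.

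For Pdpn, the measured genes of its partner list were 6 of 7, with Cd44, a binding partner in the membrane, and the cytoskeletal linkers Msn and Ezr among them. From 14 to 21 days distally, 3 fell and 1 rose, Msn by -0.90 ± 0.13 and Ezr by 0.63 ± 0.12, and 1 fell proximally, Msn (-0.48 ± 0.13). Over those days 21.5% of all genes fell and 13.3% rose distally, and 16.3% fell proximally. At 12 days between levels, Cd44 (0.47 ± 0.12) and Msn (0.37 ± 0.13) were higher distally and Lgals8, a galectin that binds podoplanin, lower (-0.35 ± 0.07), and at 14 days Ezr was lower (-0.57 ± 0.12). Pdpn itself was not called in those level comparisons, where 20.3% of all genes were at 12 days and 5.39% at 14 days.

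Markers of the other cell types that make podoplanin were set beside its fall from 14 to 21 days. Over those days 21.5% of all genes fell distally and 16.3% proximally. Of the 6 fibroblast markers 5 fell distally and 4 proximally, and their sum went from 153446 to 221419 down to 63199 to 73219 distally and from 133352 to 202416 down to 53137 to 78103 proximally, without overlap. Of the 5 lymphatic endothelium markers none was called at either level, and their sums were 583 to 1253 and 783 to 878 distally, and 933 to 1609 and 896 to 1910 proximally. Of the 5 basal keratinocyte markers none fell and 1 rose, proximally, with sums of 181083 to 244161 and 176518 to 247109 distally, and of 169097 to 272868 and 199257 to 270708 proximally. No marker of these 3 lists was at 0 in any library. Markers of other cells fell as well over these days. Besides the osteoblast markers given above, all 7 osteoclast markers fell distally and 3 proximally. Of the 4 macrophage markers 3 fell distally and none was called proximally, with sums of 1730 to 2307 down to 849 to 1292 distally and of 1581 to 2110 and 1078 to 1647 proximally. The part of each cell type in the fall of Pdpn was not tested.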

How the data were processed

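RNA of 24 digit tip libraries was measured. Reads were handled with STAR 2.5.4b, cutadapt and Subread's featureCounts 1.6.3 on build mm10, per the submitters' processing notes; per the labels' protocols, 1 µg of total RNA with an average integrity number of 8 was depleted of ribosomal RNA. The deposited values are treated as a score, that is, whole numbers that look normalised and rounded, a step recorded nowhere in the sources used here. Over 9650 genes with all values above 100, the direction of least spread had a natural-log SD of 0.00674, below the 0.0453 of Poisson sampling, and upper quartiles lay between 902.5 and 930.5. Depth is therefore unknown, count models and counting intervals were not used, and p-values are likely too small, since some spread between libraries appears to have been removed.

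Values were fitted as log2(value + 1) with limma 3.58.1 in R 4.3.3 (lmFit, eBayes with trend), 6 group means, 18 residual and 3.91 prior degrees of freedom, which understates fold changes of low genes. There were 12 comparisons, with Benjamini-Hochberg adjustment over 15055 genes, and the fit was tested on simulated data. Every gene reached 20 in some library. No label states whether strand entered the counting. The members and gene lists were chosen with earlier results of these data known. The genes named as deciding the marker sums were chosen after their values were seen. Named genes are the members, measured genes of the acidic matrix protein family, up to 3 genes of each list called in a level comparison, and the 5 genes most correlated with each member; the osteoblast markers named in comparisons of days, Bglap2 among them, list genes named for their change between days, Sostdc1 and the Wnt receptors were chosen after their values were seen. Alternatives were median-ratio and table-total scaling, pseudocounts of 0.5 and 8, a mean of at least 50, the compared groups alone, library quality weights, a replicate block, each library left out, and, chosen after seeing the data, the direction of least spread as a covariate.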

Additional observations from a re-analysis of the deposited data

Results flagged for a closer look

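Pdpn in the proximal 12-day group had 1 library far from the others. Replicate 4 was at 414 and the other 3 were at 318 to 326, so its gap to the nearest was 0.906 of the group's range, above the 95% critical value of Dixon's test for 4 samples. It was the one such case among 24 sets of a gene in a group, and chance alone gives about 1 in 20.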

How the results depend on the processing

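Median-ratio scaling, pseudocounts of 0.5 and 8, the replicate block and the least-spread covariate left all 48 log2 differences (4 genes in 12 comparisons) with the same sign and call, as did the filter on a mean of at least 50 for the 36 of the other 3 genes, which removed Sost. With the compared groups alone, the members called were 0 at 12 days between levels, 0 from 12 to 14 days distally and 2 from 12 to 21 days proximally; the cause was not tested. Uncalled values changed sign with table totals (Dmp1 between levels at 21 days, -0.12; the 14-to-21-day interaction of Phex, -0.031, and Sost, -0.068) and with quality weights (the 12-to-21-day interaction of Pdpn, 0.028).

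Leaving out 1 library gave 0 to 2 members called between levels at 12 days, 0 to 2 from 12 to 14 and 1 to 3 from 12 to 21 days distally, 1 to 2 from 12 to 21 days proximally, and 0 to 1 for the 12-to-14-day and 12-to-21-day interactions. It turned the sign of uncalled values. Between levels these were Pdpn at 12 days (-0.37 to 0.013), Dmp1 at 14 (-0.24 to 0.42) and 21 days (-0.44 to 0.44) and Sost at 21 days (-0.82 to 0.050). Between 12 and 21 days they were Sost distally (-0.15 to 1.00) and Dmp1 proximally (-0.32 to 0.27). Among interactions they were Dmp1 (-0.61 to 0.27), Phex (-0.084 to 0.41) and Sost (-0.34 to 0.57) from 14 to 21 days and Pdpn (-0.31 to 0.11) from 12 to 21 days.

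Over all genes, calls between levels at 14 days were 811, or 450 with table totals, 261 with the compared groups alone and 277 to 950 with a library left out; at 21 days 2656, or 4186 with table totals; and for the 14-to-21-day interaction 286, or 741, 164 with the compared groups alone, 181 with the covariate and 105 to 460. Table totals moved the median of all genes to -0.19 between levels at 21 days, 0.11 from 14 to 21 days proximally and -0.20 for the 14-to-21-day interaction. They changed higher and lower calls from 1392 and 1661 to 845 and 1697 between levels at 12 days, from 1237 and 1419 to 627 and 3559 at 21 days, from 1326 and 2258 to 675 and 2607 from 12 to 21 days distally, from 1107 and 1181 to 613 and 1586 from 12 to 14 days proximally, and from 1876 and 2452 to 3015 and 1563 from 14 to 21 days proximally. Median-ratio factors gave 2742 and 2758 in place of 1996 and 3238 from 14 to 21 days distally, 1831 and 1937 from 12 to 21 days distally, and 1579 and 1031 between levels at 21 days.

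Libraries of the same replicate number in different groups deviated together with r of -0.46 to 0.70 over 60 pairs (median 0.02), and 9 of 24 libraries correlated best with their own number, so the numbers were not taken to pair samples. With the replicate block the members called were 1, 0 and 0 between levels at 12, 14 and 21 days, 1, 3 and 1 in the distal and 3, 3 and 1 in the proximal comparisons of days. The unknown depth limits Sost most.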

Other observations

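Osteoclast markers mark the cells that resorb bone. Of 7 measured, all 7 fell from 14 to 21 days after distal amputation and 3 after proximal amputation. Over all genes, 21.5% and 16.3% were called as lower there. No osteoclast marker was called from 12 to 14 days at either level, and none was called between levels. All 7 were higher distally at 12 and at 14 days and 0 at 21 days, with medians of 1.13, 0.91 and -0.21. Their summed value was 16999 to 52923 at 12, 11520 to 28541 at 14 and 4003 to 9554 at 21 days distally, and 8399 to 59777, 8988 to 16242 and 5701 to 7495 proximally. The proximal 12-day maximum was replicate 1, and the others of that group were at 8399, 15518 and 18789. Tnfsf11, the gene of the osteoclast-forming cytokine RANKL, had means of 400, 172 and 64.0 at 12, 14 and 21 days distally, and it fell at each step (-1.35 ± 0.42 and -1.26 ± 0.42). Proximally its means were 121.5, 138 and 47.2, with a fall from 14 to 21 days (-1.59 ± 0.42). These genes were chosen after their values were seen.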
